A study of Mus musculus with 24 samples.

Results

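The genes described here are 47 genes of the cell division cycle, measured in the injured brain of male mice at 5 days after traumatic brain injury (TBI). They were taken from a list of symbols, and each had to have a mean of at least 0.5 TPM (a transcript level scaled to gene length and to the library total) over the 24 libraries. All 47 passed that limit, out of 17267 genes that passed it and 36333 genes in the table. The rule itself uses no difference between groups. Most of the 24 libraries came from injured mice, however, so genes raised by injury pass it more easily. Cdk1, Bub1, Cenpf and Cdc6 had sham means of 0.393, 0.252, 0.252 and 0.2495 TPM and passed only through the injured groups. The list was drawn up with earlier results of these data known. The members nearest to the limit were Cdc6 with a mean of 0.98 TPM, Chek1 with 1.61 and Tyms with 1.92, and no gene of the list lay under it. None of the 1128 member values was 0. By role, 19 members act at the G1/S transition or in S phase and 28 act in G2 and mitosis.

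One library was made per mouse. TBI was a controlled cortical impact (CCI), and all injured mice were examined at 5 days post injury (dpi). The vehicle group, the PLX3397 group, the Anakinra group and the PLX3397+Anakinra group held 5 mice each, and the sham group held 4 mice that had anesthesia and a skin incision without craniotomy or impact. Vehicle and sham mice had control chow and saline injections. PLX3397, an inhibitor of the colony stimulating factor 1 receptor (CSF1R), was given in chow at 290 mg/kg from 90 min after CCI. Anakinra, an antagonist of the interleukin-1 receptor IL1R1, was injected at 100 mg/kg at 5 min, 24 h, 48 h and 72 h after CCI. The labels give the strain as C57BL6N and the age as 12 to 16 weeks, whereas the methods name C57BL/6JRj mice. The labels name cortex, and the methods describe sections with cortex, striatum, dorsal hippocampus and thalamus. Only the animal identifiers of the vehicle group carry the letter B, and if it marks a processing batch, that batch and the vehicle group cannot be told apart. In such a tissue sample, fewer dividing cells and less cell cycle RNA per dividing cell cannot be told apart either.

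A cell that enters the cycle first makes the S-phase machinery, with the MCM helicase, the sliding clamp PCNA and the enzymes of deoxynucleotide synthesis, largely under E2F transcription factors. It later makes the mitotic kinases, spindle motors and kinetochore proteins, whose genes are held silent in resting cells by the DREAM complex and switched on by B-MYB and FOXM1. Many promoters of the mitotic class hold a cell cycle genes homology region (CHR), often with CCAAT boxes upstream, whereas promoters of the S-phase class more often hold E2F sites. After brain injury, microglia, infiltrating myeloid cells, astrocytes, oligodendrocyte progenitors, endothelial cells and fibroblasts are known to divide. CSF1R signalling supports survival and proliferation of microglia and macrophages, and IL1R1 is found on endothelial cells and other cells of the brain.

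The promoters of the members are shown because the 2 classes held these letter runs at different shares. RefSeq promoter windows on GRCm38.p6, from 250 bases before to 50 bases after each start, were matched for 38 of the 47 members, with 23 windows of 22 mitotic members and 17 windows of 16 S-phase members. Prc1 and Mcm7 had more than a single window, and the windows of Prc1 overlap. The CHR core, searched as TTTGAA on both strands, lay in 18 of the 23 mitotic windows (78.3%), in 2 of the 17 S-phase windows (11.8%) and in 17.9% of all 32851 promoter windows. An E2F match, searched on both strands as TTTCCCGC, TTTGGCGC, TTTCGCGC or TTTGCCGC, lay in 6 S-phase windows (35.3%), in 1 mitotic window (4.35%, that of Cdk1) and in 2.26% of all windows. CCAAT on either strand lay in 91.3% of the mitotic windows, 64.7% of the S-phase windows and 37.4% of all windows. These searched runs do not hold each other. They are matches of letters and not measured binding. The 200 bases before the start are printed 5′ to 3′ for 4 mitotic members, with CHR core and CCAAT matches in capitals, and for 2 S-phase members, with E2F and CCAAT matches in capitals.
Ube2c (chr2:164769729-164769928, plus strand): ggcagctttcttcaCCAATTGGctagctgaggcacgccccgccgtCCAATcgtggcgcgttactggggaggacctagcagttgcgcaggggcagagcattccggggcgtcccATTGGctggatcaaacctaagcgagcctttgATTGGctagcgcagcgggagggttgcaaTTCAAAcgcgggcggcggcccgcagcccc
Top2a (chr11:99024190-99024389, minus strand): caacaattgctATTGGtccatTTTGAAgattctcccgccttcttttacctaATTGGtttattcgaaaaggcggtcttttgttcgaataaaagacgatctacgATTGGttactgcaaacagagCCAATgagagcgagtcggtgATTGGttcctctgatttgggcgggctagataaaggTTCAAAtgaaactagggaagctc
Cdk1 (chr10:69352913-69353112, minus strand): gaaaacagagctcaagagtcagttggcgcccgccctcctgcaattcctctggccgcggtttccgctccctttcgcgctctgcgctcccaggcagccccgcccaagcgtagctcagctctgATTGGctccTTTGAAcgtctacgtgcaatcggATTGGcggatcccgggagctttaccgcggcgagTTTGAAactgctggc
Cdc20 (chr4:118437344-118437543, minus strand): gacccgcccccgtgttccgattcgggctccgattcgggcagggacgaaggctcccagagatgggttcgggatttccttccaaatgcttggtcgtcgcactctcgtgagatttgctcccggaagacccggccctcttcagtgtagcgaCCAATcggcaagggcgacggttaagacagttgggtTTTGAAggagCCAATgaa
Mcm5 (chr8:75109309-75109508, plus strand): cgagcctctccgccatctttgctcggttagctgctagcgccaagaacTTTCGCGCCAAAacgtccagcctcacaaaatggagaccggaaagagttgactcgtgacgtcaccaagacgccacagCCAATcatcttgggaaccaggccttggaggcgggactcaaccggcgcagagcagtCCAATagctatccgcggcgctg
Mcm6 (chr1:128359706-128359905, minus strand): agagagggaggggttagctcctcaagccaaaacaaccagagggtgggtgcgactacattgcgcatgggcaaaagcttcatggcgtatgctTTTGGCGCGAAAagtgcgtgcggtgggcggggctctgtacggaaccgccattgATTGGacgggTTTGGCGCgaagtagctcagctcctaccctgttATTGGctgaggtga
In Ube2c, Top2a, Cdk1 and Cdc20 the CHR core nearest to the start began at position -29, -23, -15 and -18, counted from the start, each with a CCAAT match further upstream. Mcm5 and Mcm6 held no CHR core in the whole window. Mcm6 held E2F matches that began at positions -110, -106 and -47.

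The first question was how far injury raised these genes. At 5 dpi, 44 of the 47 members were higher in vehicle than in sham mice (limma on log2(TPM + 1), Benjamini-Hochberg adjusted p below 0.05 over all genes tested, the call used throughout). Of all genes tested, 26.6% were called higher and 27.7% lower. The 44 members include Cdk1, Bub1, Cenpf and Cdc6, which passed the TPM limit only through the injured mice. The median log2 difference was 1.81 over the 28 mitotic members, all of them called higher, and 0.85 over the 19 S-phase members, of which 16 were called higher, against -0.01 over all genes tested. The mean of log2(TPM + 1) over the mitotic members minus that over the S-phase members was -1.43 in sham mice and -0.38 in vehicle mice, so the classes lay closer together after injury. In summed TPM, the mitotic members went from 39.5 ± 2.5 (SD, n = 4) in sham mice to 260 ± 60.8 (SD, n = 5) in vehicle mice, and the S-phase members from 213 ± 6.19 to 364 ± 45.5. All 44 were without overlap between the 5 vehicle and the 4 sham mice, against 21.7% of all genes in that direction. By the limits in the legends of the study (unadjusted p, ratio of mean TPM above 2, difference above 4 TPM), 30 members were higher, against 5.11% of all genes.

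Mki67, the gene of the proliferation marker Ki-67, stood at 1.21, 0.953, 0.979 and 1.02 TPM in the sham mice and at 10.5, 7.001, 11.8, 12.96 and 9.86 TPM in the vehicle mice J01B, J17B, J18B, J19B and J20B. The groups did not overlap, and the log2 difference was 2.46 ± 0.13 (SE; adjusted p = 9.73e-14). Top2a, the topoisomerase that untangles chromosomes before they separate, stood at 1.27 to 1.63 TPM in sham and at 17.4, 11.8, 20.8, 23.1 and 17.1 TPM in vehicle mice, a log2 difference of 2.93 ± 0.15 (adjusted p = 5.4e-14). In both genes J17B was the lowest vehicle mouse and J19B the highest.

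Cdk1, the kinase that drives entry into mitosis, was close to absent in sham mice at 0.348, 0.237, 0.525 and 0.462 TPM and reached 8.47, 6.67, 10.8, 12.9 and 9.25 TPM in vehicle mice. Its mean TPM was 24.5 times the sham mean, the log2(TPM + 1) difference of 2.91 ± 0.18 understating this for a gene so low in sham (adjusted p = 7.31e-13). Cdk1 passed the TPM limit only through the injured mice and would not have been tested without its rise. Ccnb1, the cyclin B1 partner of Cdk1, rose from 0.541 to 0.703 TPM in sham to 11.3, 7.30, 14.9, 16.1 and 11.6 TPM in vehicle mice, 19.4 times the sham mean. Ube2c, a ubiquitin-conjugating enzyme of the anaphase-promoting complex, rose from 1.02 to 2.75 TPM to 22.3, 14.8, 29.1, 29.3 and 21.03 TPM, with a log2(TPM + 1) difference of 3.13 ± 0.17. Pbk, a mitotic kinase, had the same difference of 3.13 ± 0.17. In ratio of mean TPM, Pbk with 15.1 and Ube2c with 13.2 came after Cdk1 and Ccnb1. Prc1, which bundles microtubules of the central spindle, went from 2.20 ± 0.322 to 13.1 ± 3.43 TPM.

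The remaining mitotic members were called higher as well. The other kinases and regulators, Ccna2, Ccnb2, Plk1, Aurka, Aurkb and the transcription factor Foxm1, had log2 differences from 1.25 (Aurka) to 2.499 (Ccnb2). The chromosomal passengers Birc5 and Cdca8 and the checkpoint kinases Bub1 and Bub1b ranged from 1.23 to 1.89, and the kinetochore genes Cenpa, Cenpe and Cenpf from 1.32 to 1.62. The mitotic exit genes Cdc20 and Cdca3 had values of 2.14 and 2.43. The spindle genes Kif11, Kif20a, Kif23, Nusap1, Tpx2 and Hmmr lay between 1.43 and 1.93.

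The S-phase members had a wider range, with log2 differences from -0.43 to 2.55 against 1.23 to 3.13 in the mitotic class. Pcna, the most abundant member per length, stood at 90.8, 99.4, 94.1 and 92.4 TPM in sham mice and at 136, 134, 165, 174 and 155 TPM in vehicle mice, 1.62 times the sham mean (log2 difference 0.69 ± 0.08, adjusted p = 6.76e-08). Rrm1, the large subunit of ribonucleotide reductase, rose from 15.5 ± 0.336 to 25.7 ± 3.69 TPM, 1.66 times the sham mean, whereas Rrm2, the small subunit that is made in S phase, rose from 2.65 ± 0.441 to 20.9 ± 5.70 TPM, 7.87 times. Of the other nucleotide enzymes, the thymidine kinase Tk1 rose 8.21 times in mean TPM, and the log2 difference of the thymidylate synthase Tyms was 0.76. Among the 6 MCM subunits the log2 difference ran from 0.46 (Mcm4) and 0.52 (Mcm7, 14.5 ± 0.388 to 21.2 ± 1.66 TPM) to 1.99 (Mcm3), with Mcm5 at 0.87, Mcm2 at 0.93 and Mcm6 at 1.23. The helicase partners Cdc45 and Gins2 had 0.87 and 1.83, and the helicase loader Cdc6 had 0.85.

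The 5 G1/S regulators did not move together. Cdk2 and the checkpoint kinase Chek1 were called higher, with log2 differences of 1.57 and 0.60. Ccne1, an E cyclin that activates Cdk2, was lower in vehicle than in sham mice, at 17.1 ± 1.33 against 21.9 ± 2.13 TPM (log2 difference -0.33, adjusted p = 0.000114), and so was the transcription factor E2f1, at 13.7 ± 1.52 against 18.8 ± 1.16 TPM (-0.43, adjusted p = 3.37e-05). The other E cyclin Ccne2 was not called, at 4.57 ± 0.559 against 4.15 ± 0.315 TPM. E2f1 and Ccne1 were thus among the more abundant members per length in uninjured tissue.

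**Figure D1:**
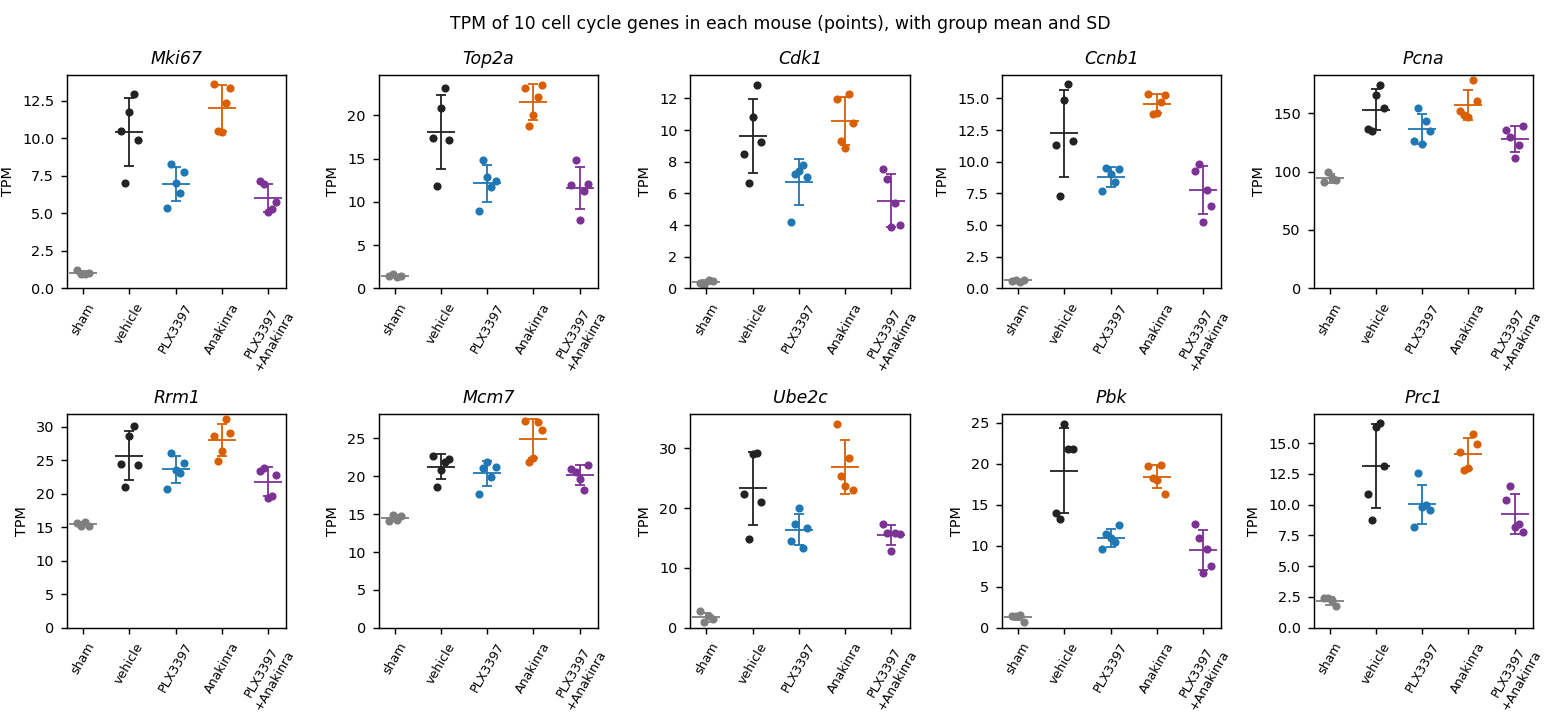
TPM (vertical axes, from 0) of 10 members in each of the 24 mice, by group on the horizontal axes, with the group mean and SD as bars. Sham mice lie near 0 for the mitotic genes and at 90.8 to 99.4 TPM for Pcna. For the 7 mitotic genes every mouse given PLX3397, alone or with Anakinra, lies below every mouse given Anakinra alone. For Pcna, Rrm1 and Mcm7 the PLX3397 mice overlap with the Anakinra mice, whereas the PLX3397+Anakinra mice all lie below them. With PLX3397+Anakinra against Anakinra, 24 of the 28 mitotic members were lower without overlap, as were 7.26% of all genes. With PLX3397 against Anakinra, 21 of the 28 were. The share of all genes was not counted for PLX3397 alone, nor for all mice given PLX3397. The 7 genes were thus not the only mitotic members so separated, and the genes vary together across the same mice.

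The second question was how much of this increase was present when CSF1R was inhibited. With PLX3397 alone, 11 of the 47 members were lower than in vehicle mice and none was higher, where 6.66% of all genes were called lower and 3.23% higher. The lower members were Mki67, Top2a, Aurkb, Plk1, Foxm1, Pbk, Cenpf, Kif11 and Nusap1 of the mitotic class and Mcm3 and Gins2 of the S-phase class. The median log2 difference was -0.34 over the mitotic members, each of which had a value below 0, and -0.17 over the S-phase members, against 0.01 over all genes tested. Mki67 stood at 5.36, 8.32, 7.04, 6.35 and 7.72 TPM in the PLX3397 mice J01, J02, J12, J19 and J20, which is 0.668 times the vehicle mean (log2 difference -0.51 ± 0.13, adjusted p = 0.00937). The PLX3397 range reached above the lowest vehicle mouse, J17B. Top2a at 8.90, 14.9, 12.9, 11.7 and 12.4 TPM had a similar ratio of 0.673 (-0.52 ± 0.15, adjusted p = 0.0214). Its call was lost without J18B, without J19B or without the PLX3397 mouse J01, with adjusted p of 0.0709, 0.081 and 0.0791.

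Pbk fell most on the log2 scale, from 19.2 ± 5.20 in vehicle to 9.58, 11.5, 10.9, 10.5 and 12.5 TPM in the PLX3397 mice (-0.71 ± 0.16, adjusted p = 0.00348). All PLX3397 mice lay under all vehicle mice for Pbk, for Aurkb, the kinase of the chromosomal passenger complex (5.73 ± 0.863 to 3.27 ± 0.463 TPM), and for Kif11, the motor that separates the spindle poles (7.14 ± 1.0 to 4.93 ± 0.672 TPM). These 3 of the 47 members were without overlap, a share near the 4.91% of all genes. Cdk1 was at 4.22, 7.20, 7.43, 7.81 and 7.005 TPM and Ccnb1 at 7.68, 9.51, 9.01, 8.42 and 9.40 TPM. Their log2 differences of -0.45 and -0.39 were not called, with adjusted p of 0.0888 and 0.0913, and that of Cdk1 was called when J17B was left out (-0.56, adjusted p = 0.0249). Ube2c at 13.4 to 19.98 TPM and Prc1 at 8.22 to 12.6 TPM were not called either, with adjusted p of 0.0757 and 0.131.

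Of the S-phase members, Mcm3 fell from 15.6 ± 2.89 to 10.5 ± 1.31 TPM (-0.51, adjusted p = 0.00211) and Gins2 from 11.4 ± 2.57 to 7.74 ± 2.15 TPM (-0.51, adjusted p = 0.0439). The 3 most abundant ones were not called. Pcna stood at 126, 154, 124, 143 and 134 TPM, 0.892 times the vehicle mean. Rrm1 at 20.8 to 26.1 TPM and Mcm7 at 17.7 to 21.9 TPM had ratios of 0.920 and 0.960. The 95% interval of the log2 difference ran from -0.28 to 0.06 for Rrm1 and from -0.20 to 0.09 for Mcm7. Ccne1, Ccne2 and E2f1 had values above 0, from 0.10 to 0.16, and were not called.

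The count of 11 depended on single mice. It was 23 without the vehicle mouse J17B, 5 without J18B, without J19B or without the PLX3397 mouse J01, and 7 without J20B or the PLX3397 mouse J19. J17B was the lowest of the 5 vehicle mice in 28 of 28 mitotic members and in 14 of 19 S-phase members. It also had the lowest summed TPM of the group over 10 microglia markers (1519, the others 1637 to 1958) and over 10 monocyte and macrophage markers (1549, the others 2278 to 3008). J01 was the lowest PLX3397 mouse in 25 of the 28 mitotic members. The part of these marker levels in the counts was not tested.

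Anakinra alone left no member called in either direction, where 0.0695% of all genes were called higher and 0.0463% lower. At an unadjusted p below 0.05, 12 members were higher and 0 lower, where 949 and 1199 of the 17267 genes tested were. The log2 differences were above 0 for 46 of the 47 members, with medians of 0.20 in the S-phase and 0.22 in the mitotic class against -0.02 over all genes. Members share their mice and vary together, so this is not a count of independent observations. Mki67 stood at 13.6, 10.5, 10.4, 12.3 and 13.3 TPM in the Anakinra mice J05, J06, J14, J21 and J22, against 10.4 ± 2.25 TPM in vehicle mice, and Top2a at 23.2, 18.8, 20.02, 22.2 and 23.6 TPM. The groups overlapped in every member. The 95% interval of the log2 difference ran from -0.05 to 0.47 for Mki67, from -0.20 to 0.49 for Cdk1 and from -0.11 to 0.20 for Pcna. Over all 47 members no interval reached under -0.34 or over 0.74. The lowest adjusted p values belonged to E2f1 (0.26, adjusted p = 0.121), Mcm7 (0.22, adjusted p = 0.166) and Ccne2 (0.30, adjusted p = 0.179). Pbk had the one value below 0, at -0.01.

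With PLX3397+Anakinra, 23 members were lower than in vehicle mice and 1 was higher, where 9.6% of all genes were called lower and 7.88% higher. The lower ones were 18 of the 28 mitotic members and 5 of the 19 S-phase members (Mcm3, Mcm6, Pcna, Rrm2 and Tk1). The medians were -0.43 in the mitotic and -0.25 in the S-phase class, against 0.01 over all genes. Mki67 stood at 7.14, 6.92, 5.07, 5.29 and 5.73 TPM in the mice J03, J04, J09, J10 and J17, 0.579 times the vehicle mean (-0.68 ± 0.13, adjusted p = 0.000336). Top2a at 11.9, 14.9, 7.96, 11.2 and 12.1 TPM had a ratio of 0.643 (adjusted p = 0.00576). Cdk1 at 7.56, 6.90, 3.89, 5.38 and 4.01 TPM and Ccnb1 at 9.28, 9.85, 5.28, 7.77 and 6.50 TPM were both called, with log2 differences of -0.71 and -0.58 and adjusted p of 0.00383 and 0.00607. Pbk fell from 19.2 to 9.51 ± 2.42 TPM (-0.93, adjusted p = 0.000112). As with PLX3397 alone, the members without overlap in the lower direction were Aurkb, Kif11 and Pbk, 3 of 47, a share near the 6.62% of all genes.

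The mitotic members not called with PLX3397+Anakinra were Ccnb2, Aurka, Cdc20, Cdca3, Cdca8, Bub1, Bub1b, Cenpa, Kif20a and Kif23. Ube2c at 12.8 to 17.4 TPM (adjusted p = 0.0252) and Prc1 at 7.78 to 11.5 TPM (adjusted p = 0.0256) were called. Pcna stood at 136, 130, 112, 122 and 139 TPM, 0.835 times the vehicle mean (-0.26 ± 0.07, adjusted p = 0.0182), while Rrm1 at 19.4 to 23.9 TPM and Mcm7 at 18.2 to 21.5 TPM were not called (adjusted p of 0.0661 and 0.539). Ccne1 was the 1 member called higher, at 19.5 ± 0.426 against 17.1 ± 1.33 TPM (0.18, adjusted p = 0.0417), and this call was lost without J18B, J19B or J20B of the vehicle mice or any 1 of the 5 PLX3397+Anakinra mice. The count of 23 was 36 without J17B, 10 without J18B or J19B and 11 without the PLX3397+Anakinra mouse J09. Mcm6 lost its call without J18B, J19B, J20B or J09, with adjusted p from 0.054 to 0.0856.

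**Figure D2:**
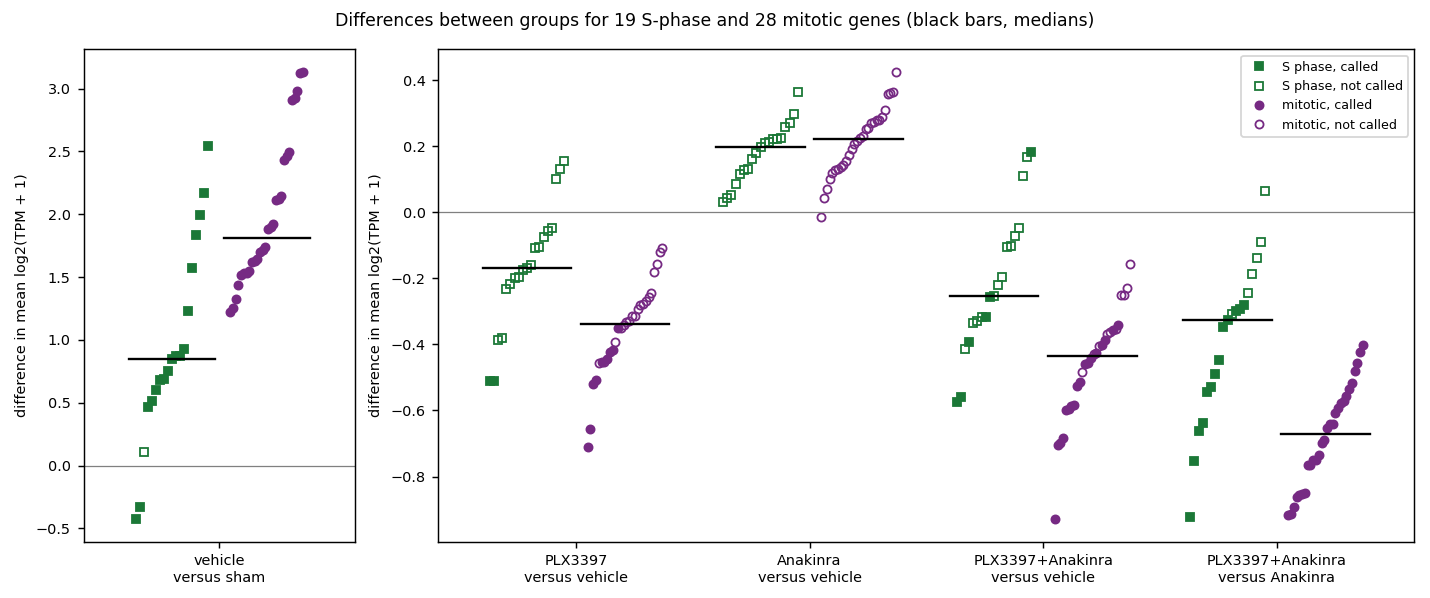
Difference between group means of log2(TPM + 1) for each of the 19 S-phase members (squares) and 28 mitotic members (circles), filled where called, with the median of each class as a black bar; the left panel has its own vertical scale. With PLX3397+Anakinra against Anakinra all 28 mitotic members are filled, and with Anakinra against vehicle none is.

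Adding Anakinra to PLX3397 did not give a detectable difference. Against PLX3397 alone, the combination had no member called by limma, none at an unadjusted p below 0.05, and a median log2 difference of -0.09, where 0.145% of all genes were called lower and 0.00579% higher. The 95% interval was -0.44 to 0.08 for Mki67, -0.37 to 0.23 for Top2a and -0.60 to 0.09 for Cdk1. Over all members the log2 differences ran from -0.28 (Birc5) to 0.12 (Mcm5). Adding PLX3397 to Anakinra did. Against Anakinra alone, the combination had 41 members lower, with all 28 mitotic and 13 of the 19 S-phase members, where 8.1% of all genes were called lower. The medians were -0.67 in the mitotic and -0.33 in the S-phase class, against 0.03 over all genes, and 35 members did not overlap, against 7.26% of all genes. Mki67 had 0.502 times and Tk1 0.490 times the Anakinra mean TPM. The members not called were Cdc45, Tyms, Ccne1, Ccne2, E2f1 and Chek1. PLX3397 against Anakinra gave 31 members lower, 23 mitotic and 8 S-phase, where 5.41% of all genes were called lower, and 20 without the PLX3397 mouse J01.

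These comparisons share mice, so the effect of each agent was also taken over all 20 injured mice in the same fit, a comparison added after the data were seen. The 10 mice given PLX3397 had 40 members lower and 0 higher than the 10 mice not given it, where 11.1% of all genes were called lower. The count stayed between 37 and 42 with each mouse left out in turn. Of the mitotic members 27 of 28 were called, with a median of -0.52, and of the S-phase members 13 of 19, with a median of -0.24, against 0.02 over all genes. The largest differences were those of Pbk (-0.81 ± 0.11, adjusted p = 4.44e-06), Aurkb (-0.78 ± 0.08, adjusted p = 4.04e-08) and Mki67 (-0.70 ± 0.09, adjusted p = 1.56e-06). The members not called were Ccne1, Ccne2, E2f1, Chek1, Cdc45 and Tyms of the S-phase class and Kif20a of the mitotic class. The 10 mice given Anakinra had 0 members called against the 10 not given it, where 0.0463% of all genes were called higher and 0.214% lower, and the median was 0.06. The interaction of the agents gave no called member, where 0% of all genes were called. Its 47 estimates were all below 0, as were 7371 of the 17267 genes tested. The medians were -0.32 in the mitotic and -0.24 in the S-phase class against 0.02 over all genes. At an unadjusted p below 0.05, 11 members were lower, as were 728 of all genes. These estimates share the same mice and vary together, so they are not independent observations. The interaction estimate of Mki67 was -0.38 with a 95% interval from -0.75 to -0.02 (adjusted p = 0.591).

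The increase remained large under every treatment. Against sham mice, 45 members were higher with PLX3397, 45 with Anakinra and 44 with PLX3397+Anakinra, where 22.7%, 25.1% and 20.7% of all genes were called higher. Mki67 in the combination was still at 6.03 ± 0.946 TPM against 1.04 ± 0.116 in sham mice. The part of the increase that was present was put as a percent, for each of the 44 members higher after injury, of the vehicle minus sham difference in mean TPM. With PLX3397 the median was 69.5% over 28 mitotic and 72.5% over 16 S-phase members. With PLX3397+Anakinra it was 63.7% and 64.4%, and with Anakinra 120% and 121%. On this linear scale the classes were thus near each other, although their log2 medians differed. The S-phase members started from a sham sum that was already 58.5% of the vehicle sum, and the mitotic members from 15.2%, so an equal part of the increase is a smaller ratio in the S-phase class. Pcna alone held 94.2 of the 213 TPM of the S-phase sum in sham mice and 153 of the 364 TPM in vehicle mice. That sum also holds Ccne1 and E2f1, which were lower after injury and are not among the 16 members. Per member the percent ran from 52.4 to 87.4 in the mitotic and from 59.0 to 91.3 in the S-phase class with PLX3397. It was under 100 in all 44 with PLX3397 and with the combination, and over 100 in 43 of 44 with Anakinra. All 44 percents share the same vehicle and sham mice, and the members vary together, so these are not counts of independent observations. Between Anakinra and vehicle mice no member was called. The same percent was not taken for other genes raised by injury.

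Taken per mouse as a median over the mitotic members, the percent was 47.0, 82.0, 73.8, 68.1 and 71.2 with PLX3397 and 75.2, 75.8, 44.8, 59.5 and 55.8 with PLX3397+Anakinra. It was 139, 105, 111, 125 and 122 with Anakinra, and in vehicle mice, whose mean sets 100, it was 90.9, 64.7, 124, 130 and 94.8. All mice given PLX3397 lay under 4 of the 5 vehicle mice, and J17B lay within their range. All Anakinra mice lay above all mice given PLX3397.

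**Figure D3:**
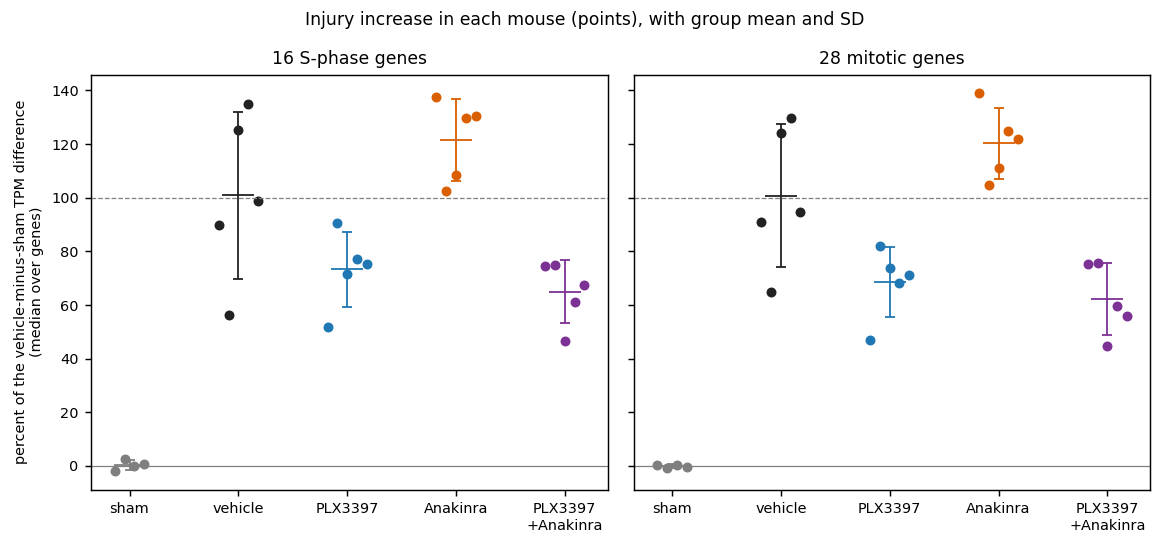
Percent of the vehicle minus sham difference in TPM (vertical axis), as the median over 16 S-phase or 28 mitotic members, in each mouse, with group mean and SD; the vehicle mean and the sham mean define 100 and 0. The PLX3397 mice lie between 47.0 and 82.0 and the PLX3397+Anakinra mice between 44.8 and 75.8 for the mitotic members.

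The order of the 5 group means was the same in 37 of the 47 members, with sham lowest, then PLX3397+Anakinra, PLX3397, vehicle and Anakinra, in 25 of 28 mitotic and 12 of 19 S-phase members. Because members vary together across the same mice, 37 is not a count of independent observations. The share of all genes with that order was not counted. Of the neighbours in this order, PLX3397+Anakinra and PLX3397 were not called different in any member, nor were vehicle and Anakinra. The mitotic mean minus the S-phase mean on the log2(TPM + 1) scale ran from -0.53 to -0.27 in the vehicle mice and from -0.69 to -0.55 in the PLX3397+Anakinra mice, without overlap. It ran from -0.68 to -0.48 in the PLX3397 mice, overlapping with vehicle.

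By role, the summed TPM with PLX3397 was 67.1% of the vehicle sum for Mki67 and Top2a and 70.2% for the cyclins and kinases of mitosis. It was 75.1% for the exit genes, 75.8% for the spindle genes, 79.2% for the passenger and checkpoint genes and 82.4% for the kinetochore genes. Among S-phase members it was 82.6% for nucleotide synthesis, 87.2% for licensing and the fork and 104% for the G1/S regulators. With PLX3397+Anakinra the same sums were 62.0% and 64.3%, then 68.4%, 70.5%, 71.8% and 72.6%, and for the S-phase groups 77.8%, 82.6% and 105%. In vehicle mice Pcna alone held 153 of the 260 TPM of the licensing and fork sum.

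Other genes of the cycle were taken from lists that share no gene with the 47. Of 44 further S-phase genes, 34 were higher and 2 lower after injury (median 0.48), 5 were lower with PLX3397 and 7 with PLX3397+Anakinra (11.4% and 15.9%, where 6.66% and 9.6% of all genes were called lower), and none was higher with either. Uhrf1, which keeps DNA methylation through replication, went from 1.17 TPM in sham to 9.19 in vehicle, 6.47 in PLX3397 and 6.27 in PLX3397+Anakinra mice (adjusted p of 0.0437 and 0.0188 against vehicle), and Cdt1, a licensing factor, from 1.94 to 6.19, 4.28 and 4.09 TPM (adjusted p of 0.00791 and 0.00198). Of 51 further mitotic genes, 44 were higher and 3 lower after injury (median 1.21), and 13 were lower with PLX3397 and 20 with PLX3397+Anakinra (25.5% and 39.2%, against the same shares of all genes). Ckap2, a spindle protein, went from 0.837 to 12.4, 8.62 and 7.42 TPM (adjusted p of 0.0121 and 0.000229). Of 12 genes of G1 entry, 11 were higher after injury, where 26.6% of all genes were, and 3 lower with PLX3397, where 6.66% of all genes were. Ccnd1, the cyclin D1 that answers to growth factors, went from 30.3 to 73.8 TPM after injury and to 64.8 TPM with PLX3397 (-0.18, adjusted p = 0.0329). Inhibitors of the cycle were also higher after injury. Of 13 cyclin-dependent kinase inhibitors and pocket proteins, 9 were higher after injury and 4 lower with PLX3397, against the same 26.6% and 6.66% of all genes. Cdkn1a, the inhibitor p21, stood at 20.7 TPM in sham, 43.2 in vehicle and 31.2 in PLX3397 mice (-0.42, adjusted p = 0.0273), and Cdkn2c, an inhibitor of CDK4 and CDK6, at 3.83, 15.9 and 11.5 TPM (adjusted p = 0.022).

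Marker lists of the cell types in the tissue moved as well. In sham mice the summed TPM was 21.3% of vehicle for microglia, 1.7% for monocytes and macrophages, 63.1% for oligodendrocyte progenitors, 33.8% for astrocytes, 75.7% for endothelial cells, 23.9% for fibroblasts and pericytes and 163.1% for neurons. All 10 microglia markers were lower with PLX3397 and with PLX3397+Anakinra than in vehicle mice, and their summed TPM was 43.3% and 38.8% of vehicle, where the mitotic members stood at 73.6% and 67.3%. The 10 monocyte and macrophage markers stood at 47.6% with PLX3397, 67.7% with Anakinra and 20.5% with the combination, with 9, 0 and 9 of them called lower. They include Cd68, which the paper uses for macrophages and microglia alike, so the myeloid lists are not separate cell types. Of all genes tested, 6.66%, 0.0463% and 9.6% were called lower than in vehicle mice with PLX3397, Anakinra and the combination, and 3.23%, 0.0695% and 7.88% higher. Csf1r itself went from 226 ± 22.9 to 89.1 ± 18.9 TPM with PLX3397 and 77.5 ± 5.68 with the combination, and was at 221 ± 8.53 with Anakinra. Its ligand Csf1 was at 57.1 ± 8.91 TPM in vehicle and 48.6 ± 4.76 in PLX3397 mice (not called), and the other ligand Il34 at 50.9 ± 4.26 and 53.7 ± 4.47 TPM (not called). The 8 oligodendrocyte progenitor markers stood at 87.6%, 88.6% and 86.8% with PLX3397, Anakinra and the combination, with 4, 0 and 6 of them called lower. The 8 astrocyte markers stood at 96.6%, 95.2% and 93.8%, with 1, 0 and 1 called higher and 0, 0 and 1 called lower. The 8 endothelial markers stood at 101%, 93.5% and 95.8%, with none called. Of the 8 neuron markers 7 were lower in vehicle than in sham mice, where 27.7% of all genes were. The 8 stood at 112.4%, 102.2% and 118.2% of vehicle, with 2, 0 and 6 called higher. The 8 fibroblast and pericyte markers stood at 182%, 219% and 186% of a vehicle sum that varied widely between mice (527 ± 308 TPM), with 4, 0 and 4 of them called higher. The 5 erythroid markers were at 26.5%, 89.6% and 27.0%, with 5, 0 and 5 called lower, and the 5 neuroblast markers at 95.5%, 94.4% and 97.1%, with none called. T cell markers, of which 1 of 8 passed the TPM limit, summed to 2.37 TPM in vehicle mice, with Trbc2 at 0 in all libraries. Neutrophil markers, of which 2 of 8 passed, summed to 2.12 ± 1.48 TPM in sham and 17.98 ± 11.3 TPM in vehicle mice. Their sums were 155.9%, 119.0% and 98.7% of vehicle with PLX3397, Anakinra and the combination, with none called. Which of these cells carried the cell cycle transcripts, and the part of their numbers in the differences, was not tested.

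**Figure D4:**
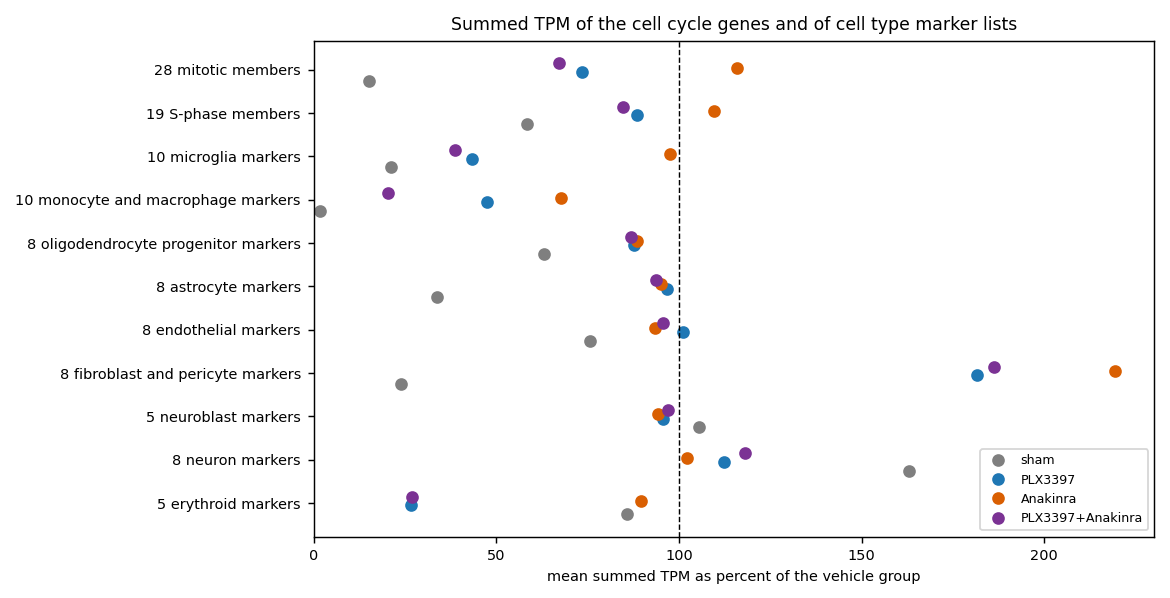
Mean summed TPM of the mitotic members, the S-phase members and 9 lists of cell type markers in 4 groups (points), as percent of the vehicle group (dashed line at 100). With PLX3397 the mitotic members stand at 73.6% and the microglia markers at 43.3%, while the astrocyte and endothelial markers stand near 100%.

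Over all 5 groups, 47 of the 47 members were called by limma's F-test, against 51.9% of all genes. The F-test includes the sham group, so a difference from sham alone can give a call. It does not tell the treatments apart.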

How the data were processed

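RNA of 24 male mice was sequenced as paired-end poly(A) libraries, 1 per mouse. The authors mapped the reads to mm10 (GRCm38) in CLC Genomics Workbench and deposited TPM, which the methods also call CPM. The full table of TPM values was used. A rounded copy and a filtered table, whose added columns hold F values and p-values of the authors, were not used. No read counts were used, whole reads could not be recovered from TPM, and the depth per library is unknown, so precision rests on 5 mice a group, or 4 in sham.

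Groups are the treatments in the labels. A gene entered the tests if its TPM averaged 0.5 or more across all 24 columns, which 17267 genes did. One limma model (version 3.58.1, R 4.3.3) held all libraries on the log2(TPM + 1) scale, with 1 mean per group and a variance trend, and p-values were adjusted by Benjamini and Hochberg over all genes tested. The methods name t-tests on TPM. The fit was tested on simulated data. The members, their classes and the other lists were chosen with earlier results of these data known. Every member is named. Values per mouse are given for Mki67, Top2a, Cdk1, Ccnb1, the 3 most abundant S-phase members and the 3 most abundant other mitotic members; of other genes, at most 3 called genes per list, plus Csf1r, Csf1, Il34 and Cdkn1a. Alternatives were another pseudocount, filter, scaling and call rule, a fit without variance trend, a fit of only the groups compared, and leaving out each mouse.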

Additional observations from a re-analysis of the deposited data

Results flagged for a closer look

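Single mice were compared with the rest of their group for the values given per mouse and for the class means, 65 groups of values in all, of which 2 held a mouse far from the others. Such a test singles out about 1 in 20 groups by chance. The Cdk1 level of the PLX3397 mouse J01 was 4.22 TPM, and the nearest mouse of its group had 7.005 TPM. The Pbk level of the sham mouse J16 was 0.705 TPM, and the nearest sham mouse had 1.41 TPM.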

How the results depend on the processing

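Of 1674 values recomputed under alternatives for 60 results, 1614 were labelled the same. For single genes this meant the same direction and side of the threshold, and for counts a value within 1.5 times. For medians and percents it meant a move smaller than the SD between mice. Only single-gene differences could be labelled reversed, and 0 were. With a pseudocount of 0.1 the vehicle minus sham medians were 1.04 in the S-phase and 2.54 in the mitotic class. Another scaling moved the median of all genes by less than 0.1 (log2). The pseudocount does not enter the percent of the injury increase. The members lower with PLX3397 than in vehicle mice numbered 6 without a filter on low values, 4 when only the groups compared were fitted, 25 at an unadjusted p (then 1 higher) and 0 by the limits of the study. With PLX3397+Anakinra against vehicle the lower members numbered 11 when only the groups compared were fitted, 35 at an unadjusted p and 1 by those limits, and the higher member was lost (0) without the filter, under median ratio scaling, with only the groups compared and by those limits, and became 2 at an unadjusted p. The cause of these changes was not tested. At an unadjusted p, 12 members were higher with Anakinra than with vehicle and 11 lower in the interaction, where 949 and 728 of the 17267 genes tested were. By the limits of the study, members lower than in sham were 0 in each comparison; lower members were 1 for PLX3397+Anakinra and 0 for PLX3397 against Anakinra; and members higher than in sham were 22 with PLX3397 and 22 with PLX3397+Anakinra. At an unadjusted p, 2 members were lower than sham with Anakinra (2 also when only those groups were fitted) and 2 with PLX3397+Anakinra. Leaving out each mouse in turn, the lower members ranged from 5 to 23 for PLX3397 against vehicle, 10 to 36 for PLX3397+Anakinra against vehicle and 20 to 34 for PLX3397 against Anakinra; the higher members for PLX3397+Anakinra against vehicle ranged from 0 to 2. Members lower than sham ranged from 1 to 2 with PLX3397, 1 to 2 with Anakinra and 1 to 2 with PLX3397+Anakinra. No paired analysis was possible because nothing ties the animal numbers to pairs: J01, J17, J19 and J20 occur with the letter B in the vehicle group and without it in a treated group, and the labels do not say that these are related animals. The depth behind the TPM values is unknown. The p-values set a difference between groups against the spread between mice within groups, estimated over all groups in the same fit.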
